A study of Mus musculus with 6 samples.

Results

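The contractile genes of smooth muscle examined here were Acta2, Tagln, Cnn1, Myh11, Smtn, Lmod1 and Cald1, 7 of the 46983 genes in the deposited tables, chosen by symbol as the usual marker set of contractile smooth muscle. All 7 were found, and all 7 passed the filter on low counts. RNA was sequenced from whole hearts of mouse embryos at stage E13.5 of the cross C57BL/6 x DBA/2, with 1 heart per library. The 3 mutant hearts (numbered 1, 5 and 10 in the labels) carried a Cre transgene under the cardiac troponin T promoter and 2 floxed Wt1 alleles, labelled TnnT2Cre;Wt1flox. The 3 control hearts (numbered 2, 3 and 5) are labelled wild type, and the study's methods describe them as Cre-negative with both Wt1 alleles floxed, so the floxed alleles were common to all 6 hearts. As the study describes it, this Cre is active in the cardiomyocyte lineage and in a fraction of epicardial cells, so epicardial Wt1 is at most partly targeted by design.

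Smooth muscle contracts when a smooth muscle myosin pulls on actin filaments. Myh11 encodes the myosin heavy chain and Acta2 the smooth muscle alpha-actin of the thin filament, while the products of Tagln (transgelin), Cnn1 (calponin 1), Cald1 (caldesmon) and Smtn (smoothelin) bind actin, and leiomodin 1 (Lmod1) starts new filaments. Serum response factor with its partner myocardin switches many of these genes on through short AT-rich elements called CArG boxes. In the heart, smooth muscle of the coronary arteries arises largely from epicardial cells, and that of the great vessels from neural crest and second heart field. Acta2 and Tagln are also made for a time by embryonic cardiomyocytes, whereas Myh11 is the most restricted to smooth muscle.

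The promoters of Acta2 and of its cardiac paralogue Actc1 are shown, because the CArG boxes that muscle actin genes share can be read in them. Of the 7 genes, 5 had a promoter window in RefSeq (GRCm38.p6) that ran from 250 bases before the gene start to 50 bases after it. Tagln and Myh11 had none. The lines below give the 150 bases before the start, 5′ to 3′, with CArG-like boxes in capitals (CC, then 6 bases that are A or T save for at most 1 G or C, then GG). Acta2 lies on the minus strand at chr19:34255374-34255523, and Actc1 on the minus strand at chr2:114052876-114053025. The starts are those of the RefSeq table, which lie 217 bases (Acta2) and 673 bases (Actc1) inside the longest extent of these genes in GENCODE M21.
Acta2: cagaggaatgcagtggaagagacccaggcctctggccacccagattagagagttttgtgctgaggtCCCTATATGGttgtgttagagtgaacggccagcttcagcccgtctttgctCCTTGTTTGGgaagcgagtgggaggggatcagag
Actc1: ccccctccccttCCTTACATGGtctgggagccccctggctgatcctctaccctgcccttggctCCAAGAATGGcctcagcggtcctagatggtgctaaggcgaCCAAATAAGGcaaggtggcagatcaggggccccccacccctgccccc
Acta2 had 2 CArG-like boxes, CCCTATATGG starting 84 bases before this RefSeq start and CCTTGTTTGG starting 34 bases before it. The letters of the first box also stood in the Actc1 window, 175 bases before its start and so upstream of the stretch printed. Actc1 also had a box in the strict form, with only A and T between CC and GG, 47 bases before the start. No CArG-like box was found in the windows of Cnn1, Smtn, Lmod1 or Cald1, where Cald1 had 2 windows. Both strands were covered, since the search pattern reads the same on either. Over all 32851 promoter windows, 9.98% held a CArG-like box and 1.63% a strict one, so a single match is not rare. These matches describe letters only and do not show that a factor binds.

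The depth lay between 44244665 and 56373393 counts per heart, and every pair of hearts differed by more than counting error. Wild type heart 5 stood apart from the rest, since its log2 CPM (counts scaled to library size with edgeR's TMM factors) deviated from the mean of the hearts with gene length at a Spearman's rho of −0.556 across 11795 genes, against −0.0622 to 0.464 in the other 5 hearts. This is a description across genes, which do not replicate each other. The main test was the quasi-likelihood test of edgeR with Benjamini-Hochberg adjustment, and its calls are those named edgeR here. It called 0% (0) of the 17473 genes tested at an adjusted p under 0.05, while 5.73% had an unadjusted p under 0.05 (3.14% higher and 2.59% lower in mutant hearts), and DESeq2 gave an adjusted p under 0.05 to 0.66% of the genes it could call. Wt1, the targeted gene, had 20.9, 17.3 and 10.2 FPKM in wild type hearts 2, 3 and 5 and 9.29, 17.2 and 17.4 FPKM in mutant hearts 1, 5 and 10 (log2 fold change −0.10, adjusted p = 0.990, edgeR), so in whole-heart RNA it did not separate the labelled groups. Reads over the floxed exon alone were not analysed here. Cardiomyocyte markers were abundant in every heart, with all 16 listed genes tested and a summed level of 35794 to 37314 FPKM (counts scaled to gene length and library size) in wild type and 36006 to 39172 FPKM in mutant hearts.

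The contractile genes were expressed at very unequal levels. In the deposited FPKM, which is per length, Acta2 was highest with a mean of 465 ± 42.7 FPKM (SD, n = 6 hearts), followed by Tagln with 263 ± 35.8, Cnn1 with 136 ± 5.20, Cald1 with 86.2 ± 15.5 and Smtn with 23.5 ± 2.68 FPKM. Myh11 (1.01 ± 0.889 FPKM) and Lmod1 (0.864 ± 0.262 FPKM) came last. Each of the first 5 genes was above the next in the order in 6 of 6 hearts. Myh11 was above Lmod1 in only 2 of 6 hearts, so these neighbours did not differ beyond their spread. Acta2, Tagln and Cnn1 together made up 86.6% to 90.7% of the summed FPKM of the 7 genes in each heart.

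**Figure D1:**
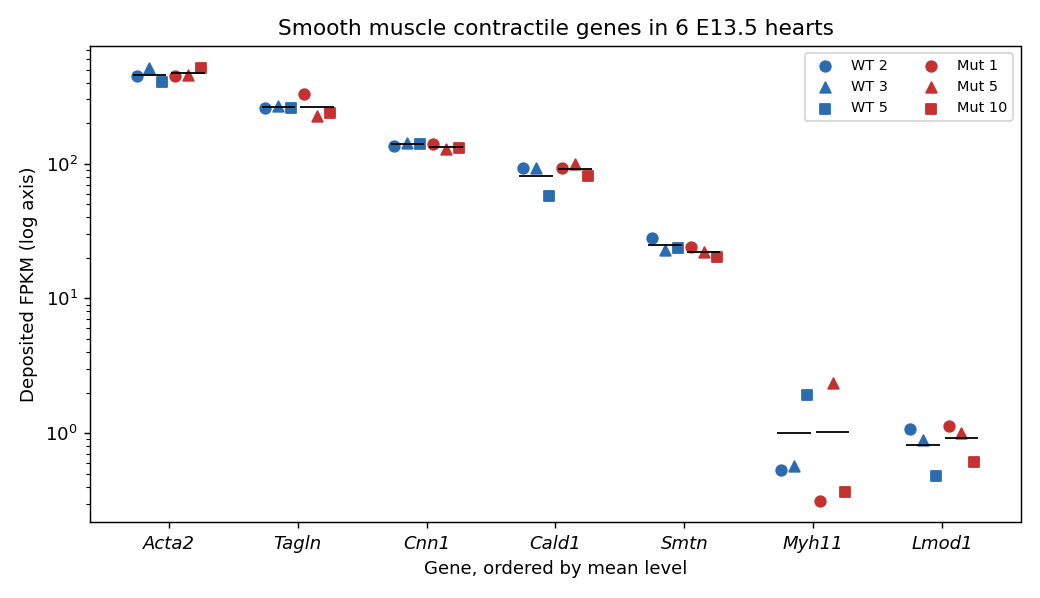
Deposited FPKM of each contractile gene (log axis) in the 6 hearts, wild type in blue and mutant in red, with a marker shape for each heart and black lines at the group means. Acta2 lies near 465 FPKM and Lmod1 near 0.864 FPKM, and wild type 5 and mutant 5 stand above the other hearts for Myh11.

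The length behind an FPKM value decides such an order where a gene has many transcripts. The deposited values used 2009 bases for Cald1 and 2041 for Smtn, while all annotated exons of these genes in GENCODE M21 cover 12041 and 4380 bases. With the covered exon bases as length, a choice made after the data were seen, the mean level was 14.4 FPKM for Cald1 and 11.0 FPKM for Smtn, and Cald1 was above Smtn in 5 of 6 hearts. The order of the other genes was kept. Counts per gene also do not separate the muscle from the non-muscle forms that Cald1 and Smtn produce.

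Acta2 and Myh11 were set apart by a ratio that itself varied widely. Per length, Acta2 was 193 to 1419 times as high as Myh11 in single hearts, with the lowest ratios in mutant heart 5 (193) and wild type heart 5 (213) and 851 or more in the other 4 hearts. Actc1, the cardiac alpha-actin of the sarcomere, was 18.9 to 21.6 times as high as Acta2 in every heart, so the smooth muscle to cardiac actin ratio was nearly constant. No stretch of 150 bases in the Acta2 transcripts occurred in a transcript of another gene, so reads of that length can be assigned between these actins.

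None of the contractile genes passed the threshold between mutant and wild type hearts. By edgeR 0 of 7 were called (background 0%) and 0 of 7 reached an unadjusted p under 0.05 (background 5.73%, made up of 3.14% higher and 2.59% lower), and DESeq2 and limma-voom also called 0 of 7. The log2 fold change was above 0 in 5 genes and below 0 in 2, with a median of 0.03, beside a median of −0.0010 over all genes tested. The groups overlapped in all 7 genes, while they did not overlap in 11.2% of all genes tested (6.61% higher and 4.59% lower in mutant hearts). The labels do not say whether littermates or days were shared. The p-values treat the hearts as independent and measure the spread between them. In whole-heart RNA, fewer cells of a type and less RNA per cell cannot be told apart.

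**Figure D2:**
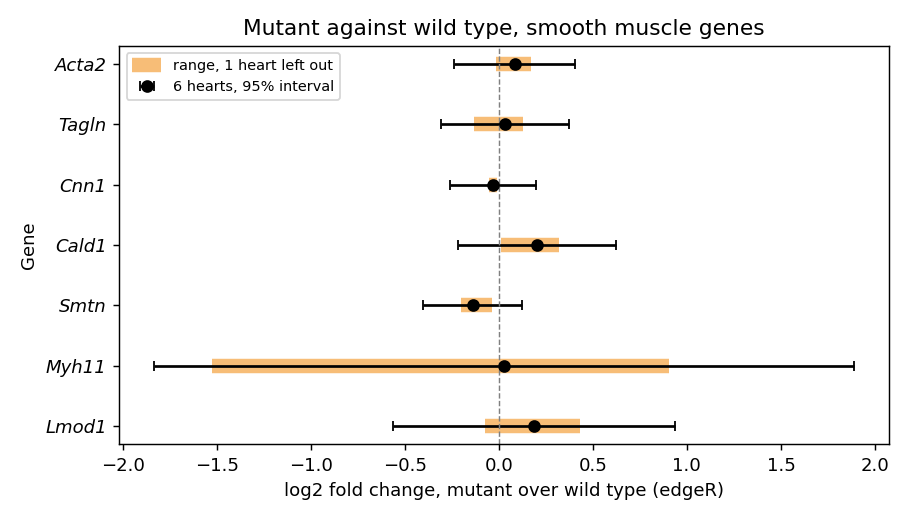
Log2 fold change of each contractile gene, mutant over wild type, from edgeR (points) with 95% intervals (bars) and the range of the value when 1 heart is left out (orange). All 7 intervals include 0, and the one of Myh11 runs from −1.83 to 1.89.

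Acta2, the smooth muscle alpha-actin (ENSMUSG00000035783, protein-coding, chromosome 19 from 34241090 to 34255590, minus strand, GRCm38), had 451, 514 and 406 FPKM in wild type hearts 2, 3 and 5 and 449, 455 and 517 FPKM in mutant hearts 1, 5 and 10. The highest values of both groups, in wild type heart 3 and mutant heart 10, were nearly the same. Mutant over wild type, Acta2 had a log2 fold change of 0.08 (standard error 0.14, 95% interval −0.24 to 0.40, adjusted p = 0.985, edgeR), which was −0.016 without mutant heart 10. The interval corresponds to 0.849 to 1.32 times the wild type level. Over the 11794 other genes with a mean log2 CPM over 2, the profiles closest to that of Acta2 over the 6 hearts were those of Rnf217, 2310022A10Rik and Ebp, whose centred log2 CPM differed from it by a root mean square of 0.029, 0.040 and 0.042.

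Tagln, which encodes the actin-binding transgelin (ENSMUSG00000032085, chromosome 9 from 45929619 to 45936058, minus strand), had 258, 269 and 261 FPKM in wild type hearts 2, 3 and 5. The mutant values were wider apart, at 328, 226 and 236 FPKM in hearts 1, 5 and 10. Mutant heart 1 lay above all wild type hearts and the other 2 mutant hearts lay below them. The log2 fold change of 0.03 (standard error 0.15, 95% interval −0.31 to 0.37, adjusted p = 0.992, edgeR) turned to −0.13 without mutant heart 1. Exons of the antisense gene Gm48529, which is not in the count table, cover 62.4% of the exon bases of Tagln, and exons of Pcsk7 on the opposite strand cover 5.43%. The methods do not name a strand setting, so reads from these genes cannot be told apart from those of Tagln there.

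Cnn1, which encodes calponin 1, an inhibitor of actomyosin (ENSMUSG00000001349, chromosome 9 from 22099216 to 22109630, plus strand), was the steadiest of the contractile genes. It had 135, 143 and 140 FPKM in wild type hearts 2, 3 and 5 and 139, 130 and 132 FPKM in mutant hearts 1, 5 and 10. Over the 6 hearts the highest value was 1.10 times the lowest, and only 1.06% of all genes tested had a smaller SD of log2 CPM. Its log2 fold change of −0.03 had a standard error of 0.10 (95% interval −0.26 to 0.20, adjusted p = 0.990, edgeR).

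Smtn, which encodes smoothelin, a protein of contractile smooth muscle (ENSMUSG00000020439, chromosome 11 from 3517523 to 3540612, minus strand), had 28.2, 22.7 and 23.6 FPKM in wild type hearts 2, 3 and 5. In mutant hearts 1, 5 and 10 it had 24.1, 22.2 and 20.2 FPKM. The highest heart was wild type and the lowest mutant, but the groups overlapped. The log2 fold change was −0.14 (standard error 0.11, 95% interval −0.40 to 0.13, adjusted p = 0.985, edgeR), with a range of −0.20 to −0.04 on leaving out single hearts. Exons of Gm11946 on the opposite strand cover 16.3% of the exon bases of Smtn. Gm11946 itself had 68 counts over all hearts together, beside 2134 to 3197 counts of Smtn in single hearts.

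Cald1, which encodes the actin-binding regulator caldesmon (ENSMUSG00000029761, chromosome 6 from 34598500 to 34775473, plus strand), had 93.4, 92.5 and 57.2 FPKM in wild type hearts 2, 3 and 5. Mutant hearts 1, 5 and 10 had 93.0, 100.3 and 81.1 FPKM. Wild type heart 5 was the one low heart, and the other 5 lay between 81.1 and 100.3 FPKM. Its mutant over wild type log2 fold change came to 0.20 (standard error 0.18, 95% interval −0.21 to 0.62, adjusted p = 0.985, edgeR) with all hearts and 0.01 without wild type heart 5. That heart is also the one with the steepest trend of level with gene length. A fit that removed the trend over each gene's deposited length gave 0.20. That fit took Cald1 at 2009 bases, while its annotated exons cover 12041 bases, so a trend over the longer length was not tested.

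Lmod1, the leiomodin that starts actin filaments in smooth muscle (ENSMUSG00000048096, chromosome 1 from 135324807 to 135368065, plus strand), was one of the low members, together with Myh11. It had 235, 198 and 84 counts in wild type hearts 2, 3 and 5 and 226, 208 and 128 counts in mutant hearts 1, 5 and 10. Wild type heart 5 and mutant heart 10 were the low hearts of their groups. These 2 hearts also had the most erythroid RNA, with a summed level of 60682 and 62411 FPKM over 8 globin and red cell genes against 19212 to 25706 FPKM in the other 4 hearts, and its part in the result was not tested. The log2 fold change of Lmod1, 0.19 (standard error 0.33, 95% interval −0.56 to 0.94, adjusted p = 0.985, edgeR), turned to −0.07 without wild type heart 5. That heart also had the steepest trend of level with gene length. A fit that removed this trend gave 0.16 for Lmod1.

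Myh11, the smooth muscle myosin heavy chain (ENSMUSG00000018830, chromosome 16 from 14194535 to 14291372, minus strand), varied far more between hearts than any other contractile gene. It had 195, 215 and 561 counts in wild type hearts 2, 3 and 5 and 107, 817 and 130 counts in mutant hearts 1, 5 and 10, or 0.530, 0.575 and 1.91 FPKM against 0.316, 2.36 and 0.369 FPKM. One heart of each group was high, wild type heart 5 and mutant heart 5, and the other 4 were low. The highest heart was 3.61 times the lowest within the wild type group and 7.47 times within the mutant group. The SD of log2 CPM over the 6 hearts was 1.22, above 98.5% of all genes tested, whose median was 0.226. Among the 1144 genes whose mean log2 CPM lay within 0.5 of that of Myh11, 99.3% had a smaller SD.

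The mutant over wild type estimate for Myh11 depended on these 2 hearts. With all 6 it came to a log2 fold change of 0.03 (standard error 0.81, 95% interval −1.83 to 1.89, adjusted p = 0.999, edgeR), which leaves room for 0.281 to 3.70 times the wild type level. It was −1.52 without mutant heart 5 (unadjusted p = 0.0405, adjusted p close to 1 in edgeR) and 0.91 without wild type heart 5 (adjusted p = 0.681, edgeR). With both hearts left out, a choice made after the data were seen, it was −0.64 (standard error 0.25, unadjusted p = 0.0405, adjusted p = 0.348, edgeR with 2 hearts against 2). These hearts were left out for their high Myh11, so the smaller standard error and p follow from that choice and show no group difference. In this fit 2373 of the 17606 genes tested had an unadjusted p under 0.05. Over all settings tried, 0 of 18 gave Myh11 an adjusted p under 0.05, and its smallest adjusted p was 0.348.

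Markers of other tissues moved with Myh11 across the hearts. Foregut epithelium markers, which a heart should lack, had a summed level of 10.4 FPKM in wild type heart 5 and 9.83 FPKM in mutant heart 5, against 0.664 to 2.96 FPKM in the other 4 hearts. Of the 10 listed markers 7 were tested, and 5 of these 7 had wild type heart 5 and mutant heart 5 as their highest hearts, as did 5 of 7 tested markers of visceral mesenchyme and 4.98% of all genes tested. Looking for this pair of hearts was a choice made after the values of Myh11 were seen. The tested foregut markers Cdh1 and Krt5 did not have this pair at the top. Of their summed FPKM, 27.4% and 67.8% lay in wild type heart 3 and 20.6% and 0.587% in wild type heart 5. None of the foregut markers was at 0 in all 6 hearts. The endodermal factor Foxa2 had 0, 14 and 130 counts in wild type hearts 2, 3 and 5 and 8, 103 and 1 counts in mutant hearts 1, 5 and 10. Nkx2-1, the lung and thyroid factor, was not among the 7 tested. It had 64 counts in wild type heart 5, 65 in mutant heart 5, 8 in mutant heart 1 and 0 in the others. A count of 0 allows up to 3 counts. Hhip, a hedgehog-binding protein made by mesenchyme next to foregut epithelium, had 132 and 159 counts in wild type heart 5 and mutant heart 5 and 0 to 14 counts in the others. Foxa2, Nkx2-1, Hhip and Cdh1 were picked after their values were seen. The part of this RNA in the level of Myh11 was not tested.

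**Figure D3:**
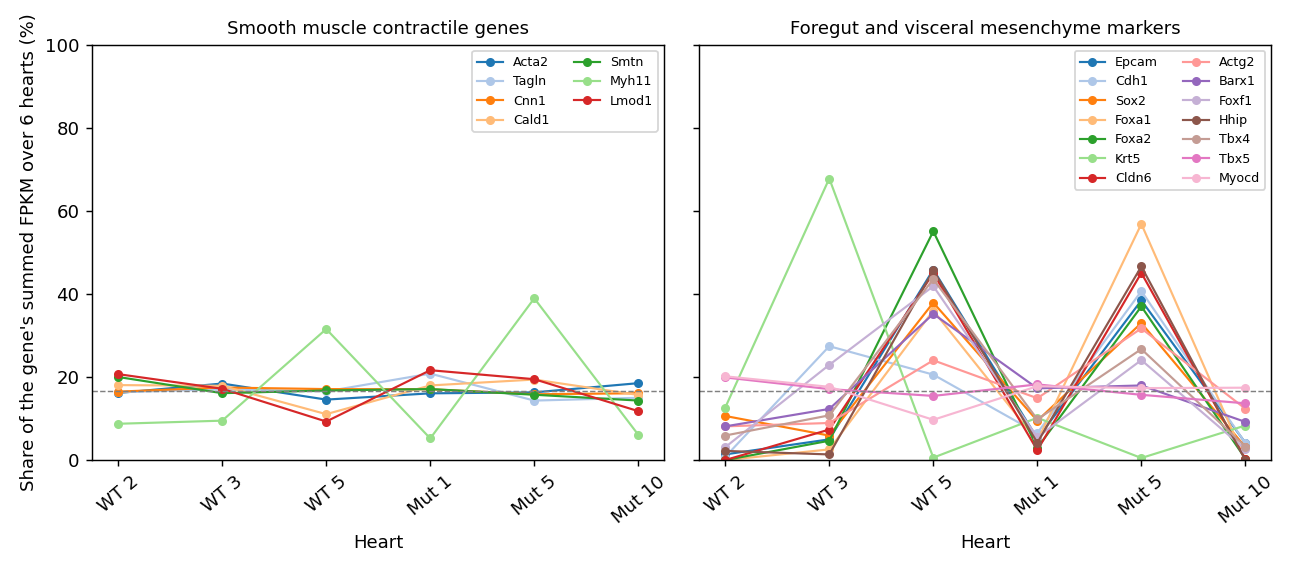
Share of each gene's summed FPKM over the 6 hearts that falls in each heart (percent, dashed line at an equal share), for the 7 contractile genes (left) and for the tested foregut and visceral mesenchyme markers (right), where lines only join the values of 1 gene. Myh11 has 31.5% in wild type 5 and 38.9% in mutant 5, while Acta2, Tagln, Cnn1 and Smtn stay between 14.3% and 20.8% in every heart.

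Among the partners 2 of 30 had the same highest hearts, as did 2 of 29 regulators, beside 4.98% of all genes tested, so these lists did not stand apart. The 2 partners were Actg2 and Mylk. Actg2, and Foxf1 among these 2 regulators, are also on the visceral mesenchyme list, so they are counted in both places. Actg2, the smooth muscle gamma-actin typical of gut and airway, had 5.23, 5.75 and 15.5 FPKM in wild type hearts 2, 3 and 5 and 9.59, 20.4 and 7.96 FPKM in mutant hearts 1, 5 and 10. Mylk, the kinase that switches smooth muscle myosin on, had 3.29, 2.73 and 5.37 FPKM in wild type hearts and 1.72, 3.97 and 1.72 FPKM in mutant hearts, in the same order. For both genes wild type heart 5 and mutant heart 5 were the highest hearts of their groups. The profiles closest to that of Myh11 among 11794 genes were those of Gm12191, Mylk and Fibin, with a root mean square difference in centred log2 CPM of 0.61, 0.64 and 0.65. Acta2, Tagln, Cnn1, Smtn, Lmod1 and Cald1 did not have this pair of hearts at the top.

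The wider set of contractile partners gave a picture like that of the 7 genes. Of 30 listed partners (such as light chains, myosin phosphatase, tropomyosins, anchoring proteins) all 30 were tested, 16 were above and 14 below wild type, and the median log2 fold change was 0.06. By edgeR 0 were called and 2 of 30 reached an unadjusted p under 0.05, close to the background of 5.73%, while DESeq2 called 0. These 2 were Hspb6, a small heat shock protein of muscle, with a log2 fold change of 0.46 and unadjusted p = 0.0154 (adjusted p = 0.709, edgeR), and Ppp1r14a, an inhibitor of myosin phosphatase, with −0.59 and unadjusted p = 0.0387 (adjusted p = 0.843, edgeR). The next were Tpm2 (log2 fold change −0.25) and Mylk (−0.60). Tpm1, Myl9 and Myl6, a tropomyosin and myosin light chains that other cells also use, had the highest levels at 2025, 1437 and 1157 FPKM over the 6 hearts and log2 fold changes of 0.04, −0.13 and −0.16. With all hearts Synm, which encodes the intermediate filament protein synemin, had a log2 fold change of −0.54 (adjusted p = 0.968, edgeR), and wild type heart 5, at 1.09 FPKM, was below every mutant heart. It was called by edgeR and by DESeq2 when wild type heart 5 was left out (log2 fold change −0.89, adjusted p = 0.0423, edgeR, where 0.247% of all genes passed). Synm was named after its values were seen.

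Of the factors that switch smooth muscle genes on, Srf had the steadiest level of the 4 named here. This serum response factor had 44.1, 46.7 and 44.0 FPKM in wild type hearts 2, 3 and 5 and 44.6, 44.9 and 44.8 FPKM in mutant hearts 1, 5 and 10. This gave a log2 fold change of 0.03 (standard error 0.09). Myocd, which encodes myocardin and is also used by cardiomyocytes, had 25.2, 22.03 and 12.1 FPKM in wild type hearts and 22.2, 21.6 and 21.8 FPKM in mutant hearts. As for Cald1 and Lmod1, wild type heart 5 was the low heart. The myocardin-related factors Mkl1 and Mkl2 had log2 fold changes of −0.02 and 0.0021.

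Of the 29 listed regulators, all tested, edgeR called 0 and gave 2 an unadjusted p under 0.05 (background 5.73%), with a median log2 fold change of 0.0021. Tcf21, a factor of epicardium-derived cells that turns them to fibroblasts and away from smooth muscle, had 43.8, 36.2 and 46.9 FPKM in wild type hearts 2, 3 and 5 and 23.3, 18.7 and 16.1 FPKM in mutant hearts 1, 5 and 10. All mutant hearts were below all wild type hearts, at a log2 fold change of −1.10 (standard error 0.15, unadjusted p = 8.06e-05, adjusted p = 0.113, edgeR). DESeq2 called it, as did edgeR without a filter on low counts or without wild type heart 5. Tgfbr2, a receptor for TGF-beta, had a log2 fold change of 0.35 (unadjusted p = 0.0265, adjusted p = 0.791, edgeR), and was followed by Heyl, a target of Notch (−0.46), and Klf4 (0.30), which represses smooth muscle genes. The regulators with the highest levels, Csrp2, Rhoa and Tgfbr1, had log2 fold changes of −0.16, 0.03 and 0.09.

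**Figure D4:**
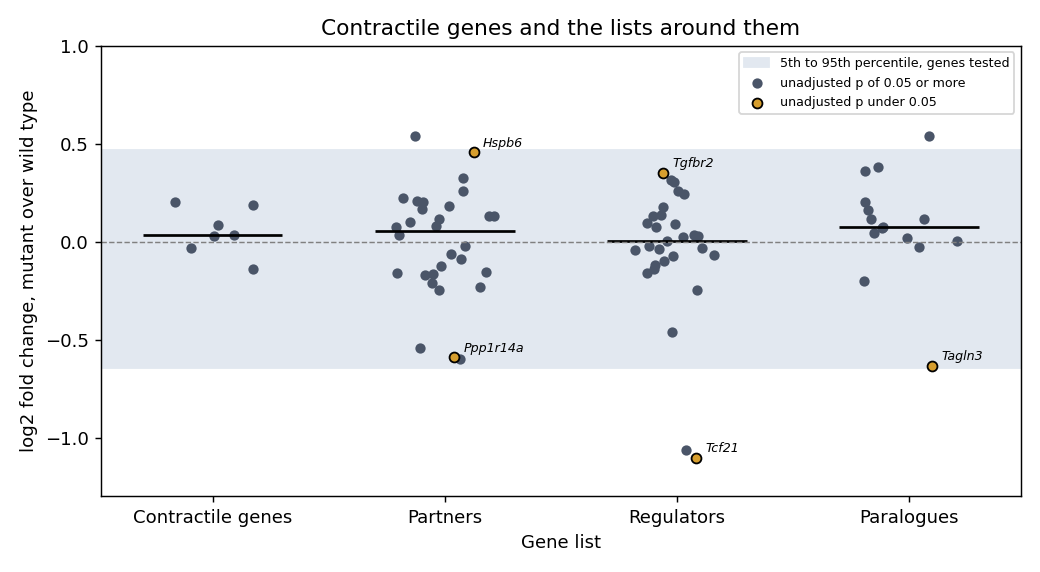
Log2 fold change, mutant over wild type, of every tested contractile gene, partner, regulator and paralogue (points, with a black line at the median of each list), beside the 5th to 95th percentile of all genes tested (shaded band, −0.64 to 0.47). Labelled points have an unadjusted p under 0.05, and only Tcf21 and Foxf1 among the regulators lie below −1.

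The striated and non-muscle paralogues of the contractile genes covered a wide range of levels. Of 16 listed, 15 were tested, 12 were above and 3 below wild type, and the median log2 fold change was 0.08. By edgeR 0 were called, and 1 of 15 reached an unadjusted p under 0.05, close to the background of 5.73%. This was Tagln3 (log2 fold change −0.63, adjusted p = 0.694, edgeR). The DESeq2 fit called 0. Among the actins the mean level over the 6 hearts was 9532 FPKM for the cardiac Actc1, 1138 FPKM for Actb, 534 FPKM for Actg1, 117 FPKM for the skeletal Acta1 and 10.7 FPKM for Actg2, with Acta2 at 465 FPKM below Actg1 in 5 of 6 hearts and above Acta1 in 6 of 6. The cardiac leiomodin Lmod2 (54.9 FPKM) and Lmod3 (16.1 FPKM) were far above Lmod1. The non-muscle myosins Myh9 and Myh10 had means of 66.0 and 163 FPKM beside 1.01 FPKM for Myh11. Per length, Cnn3 (280 FPKM) and Cnn2 (177 FPKM) were above Cnn1 in 6 of 6 hearts, while Tagln2 (290 FPKM) was above Tagln in 4 of 6, so these did not differ beyond their spread. The log2 fold changes of Tagln2, Cnn3 and Cnn2 were 0.11, −0.02 and 0.02. Smtnl2, a smoothelin-like gene, had 90.6 FPKM and a log2 fold change of 0.04.

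Markers of cells that lie next to smooth muscle gave the setting of these values. For pericytes, 8 of 10 listed genes were tested, with a summed level of 261 to 330 FPKM in wild type and 320 to 345 FPKM in mutant hearts. Higd1b, often taken as a defining pericyte gene, had 0 counts in all 6 hearts, which allows up to 3 counts in each, and it was singled out after its values were seen. It was the only 1 of the 10 listed pericyte genes at 0 in every heart. Pdgfrb, also on this list and named after its values were seen, had 5.70 to 11.0 FPKM. Fibroblast markers summed to 1862 to 2465 FPKM in wild type and 2408 to 3129 FPKM in mutant hearts. Of these 10 genes, Col1a1 and Col1a2 had an unadjusted p under 0.05 by edgeR and were higher (background 3.14%). Their groups did not overlap (background 6.61%). Tcf21 was lower, also at an unadjusted p under 0.05 by edgeR (background 2.59%). Epicardial markers summed to 127 to 242 FPKM in wild type and 170 to 266 FPKM in mutant hearts. Of the 11, all tested, 7 had a log2 fold change above 0 and 4 below 0. By edgeR 5 of the 11 had an unadjusted p under 0.05 and were higher (background 3.14%). Of these 5, 4 (Upk1b, Krt8, Krt18 and Aldh1a1) had groups that did not overlap (background 6.61%). Upk1b and Krt18 were named after their values were seen. Krt8, a keratin, and Aldh1a1, a retinaldehyde dehydrogenase, had log2 fold changes of 1.13 and 1.04 (adjusted p = 0.273 and 0.578, edgeR), and DESeq2 called both. Endothelial markers summed to 354 to 417 and 396 to 444 FPKM. Skeletal muscle markers summed to 93.5 to 173 FPKM in wild type and 99.9 to 124 FPKM in mutant hearts. Most of this was Acta1, at 89.0 to 145 FPKM in wild type and 96.1 to 121 FPKM in mutant hearts. The factor Myog stood out in wild type heart 3, where it had 13.9 FPKM against 0.516 to 1.80 FPKM in the other 5 hearts. Acta2, Tagln and Cnn1 had wild type heart 3 among their 2 highest in log2 CPM, while Myh11, Smtn, Lmod1 and Cald1 did not. The other high heart differed, at mutant heart 10 for Acta2, mutant heart 1 for Tagln and wild type heart 5 for Cnn1. The share of all genes with wild type heart 3 among their 2 highest was not computed, so nothing is drawn from this count. Of the 10 skeletal muscle markers 7 were tested, all with log2 fold changes below 0 (median −2.14). By edgeR 4 of them had an unadjusted p under 0.05 (background 2.59% in that direction). In 1 of the 7, Myog, the groups did not overlap (background 4.59% in that direction). Over the 109 distinct genes of all marker lists, edgeR called 0 of 100 tested (background 0%) and DESeq2 called 4 (background 0.66%). By edgeR 23 of the 100 reached an unadjusted p under 0.05 (background 5.73%). Of these 23, 7 were among the 8 macrophage genes and had positive log2 fold changes (background 3.14%). Macrophage genes summed to 31.2 to 36.7 FPKM in wild type and 51.0 to 53.6 FPKM in mutant hearts. Genes of neural crest and neurons summed to 15.8 to 19.7 and 11.5 to 16.8 FPKM, and those of visceral mesenchyme to 68.6 to 76.1 and 61.1 to 81.7 FPKM. The visceral mesenchyme sum includes Myocd (mean 20.8 FPKM) and Tbx5. Single hearts held 9.69% to 20.2% of the FPKM of Myocd and 13.7% to 19.9% of that of Tbx5. This sum therefore does not show the 5 of 7 tested markers that were highest in wild type heart 5 and mutant heart 5. The part of these cells in the values of the contractile genes was not tested.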

How the data were processed

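Total RNA of each whole heart was sequenced on an Illumina platform after TruSeq preparation. Trim Galore, STAR (genome mm10) and featureCounts on uniquely mapped reads were used by the authors per their methods, while the submitters' processing notes name HTSeq and DESeq2 instead. The authors deposited raw counts per gene and heart, 44244665 to 56373393 in all. The deposited FPKM values equal the count over 1 fixed length per gene and the heart's total, within a relative deviation of 6.15e-14. Tables without gene names hold the same values, and a table of group means was not used.

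Counts were tested with edgeR 4.0.16 (R 4.3.3) by the quasi-likelihood test, with TMM, filterByExpr (count minimum 10, total 15), no covariate, two-sided, and Benjamini-Hochberg adjustment over 17473 genes at a threshold of 0.05. The standard error is the log2 fold change over the square root of F. DESeq2 1.42.0, limma 3.58.1 (voom, and trend on log2 of FPKM plus 1 or 0.1), other scalings and filters, an Xist covariate, removal of the length trend (local regression, span 0.5) and each heart left out were the alternatives. The fits were tested on simulated data. The exons were those of GENCODE M21, and promoter windows those of RefSeq.

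The 7 members and the lists were chosen with earlier results of these data known. Named genes are the 7, Srf, Myocd, Mkl1 and Mkl2, the 4 partners and 4 regulators with the smallest p, the 3 of each with the highest FPKM, the paralogues at or above the lowest member in FPKM, and any listed gene with an adjusted p under 0.05. In each marker list the 2 genes with the smallest p come under the rule and are given where a result turns on them. Likeness was computed for Acta2 and Myh11. Where 2 rows share a symbol, the one that GENCODE names so was used. Intervals and limits of a count of 0 cover counting error only for single counts.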

Additional observations from a re-analysis of the deposited data

How the results depend on the processing

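The count of contractile genes with an adjusted p under 0.05 was 0 under all 18 alternatives, and the smallest adjusted p of any of them was 0.348. The sign of the log2 fold change was kept under all 18 for Smtn, 17 for Acta2, Cnn1 and Cald1, 15 for Tagln and Lmod1 and 9 for Myh11. With each heart left out in turn, the log2 fold change ran from −0.016 to 0.17 in Acta2, −0.13 to 0.13 in Tagln, −0.053 to −0.0079 in Cnn1, −0.072 to 0.43 in Lmod1, 0.01 to 0.32 in Cald1 and −1.52 to 0.91 in Myh11. Wild type replicate 5 and mutant replicate 5 decided the ends for Myh11. Tagln turned to −0.014 with limma-trend on FPKM with either pseudocount. Myh11 turned to −0.26 with limma-voom, −0.071 and −0.28 with limma-trend on FPKM plus 1 and plus 0.1, −0.30 with the Xist covariate and −0.29 with the length trend removed, and the cause was not tested. Without wild type replicate 5 and mutant replicate 5 together, Myh11 was −0.64, Lmod1 −0.15, Cald1 −0.055, Tagln 0.14 and Cnn1 0.0071. With DESeq2 and no wild type replicate 5, Lmod1 was −0.076. Both of these were added after the data were seen.

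Members whose groups did not overlap numbered 0 with all hearts, 0 to 2 with 1 heart left out (Tagln and Smtn without mutant replicate 1, Cnn1 without wild type replicate 2, Myh11 without mutant replicate 5) and 1 without both replicates 5. In these 4 settings 24.0%, 20%, 16.4% and 46.2% of all genes did not overlap. Among regulators 1 was called by DESeq2 and 1 without a filter on low counts, and 0 to 1 with edgeR and 1 heart left out. Among marker genes these were 4, 3 and 0 to 3, and 1 without both replicates 5. Among partners 0 to 1 were called with 1 heart left out. DESeq2 without wild type replicate 5 called 2 partners, 2 regulators, 1 paralogue and 10 marker genes, and 447 (2.52%) of all genes. Over all genes DESeq2 called 132, edgeR without a filter 34, edgeR with the length trend removed 9 and edgeR without wild type replicate 5 called 44. The ratio of group mean FPKM of Myh11, 1.01 with all hearts, was 0.341 without mutant replicate 5, or 1.84 if wild type replicate 5 was dropped, and its wide spread keeps even these within 1 SD. No paired analysis was possible because the groups share only replicate number 5. At 84 to 817 counts, Lmod1 and Myh11 had the widest intervals.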

Other observations

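Genes of airway and gut mesenchyme gave further values in the hearts with the most Myh11. Tbx4, a factor of lung and limb mesenchyme, had 40, 74 and 235 counts in wild type hearts 2, 3 and 5 and 61, 170 and 21 counts in mutant hearts 1, 5 and 10. Foxf1, a factor of visceral mesenchyme, had 24, 180 and 258 counts in wild type and 39, 175 and 19 counts in mutant hearts, so wild type heart 3 was close to mutant heart 5 there. Sftpc, a gene of lung alveolar cells, had 0 to 7 counts in every heart. Krt5, a gene of basal epithelial cells, had 147 counts in wild type heart 3 and 1 to 27 counts in the other hearts, and 1 count in each of the hearts with the most Myh11. Tbx4, Sftpc and Krt5 were picked after their values were seen, and no test was run on these patterns.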
